A study of Homo sapiens with 3 samples.

Results

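The mRNAs of the mitochondrial ribosomal proteins (MRPs) were compared between an anti-Flag precipitate and an IgG precipitate of ACHN cells, an established human renal carcinoma line. They were taken by rule, as every protein-coding row of both gene tables with a symbol made of MRPL or MRPS, a number and at most a letter from A to C. This gave 78 of 57820 rows, with 76 symbols, since MRPL30 and MRPS17 have 2 rows each. By name 48 rows belong to the large subunit and 30 to the small subunit.

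Both libraries came from ACHN cells that stably expressed Flag-tagged MEX3A, an RNA-binding protein, and were fixed with formaldehyde. The Flag library held the RNA precipitated with anti-Flag antibody, and the IgG library the RNA precipitated with IgG, which gives the background of the method. Each antibody has 1 library, so no difference has a replicate check and no p-value was computed. The labels name a sample of input RNA as well, which was not analysed here, so no ratio is relative to the level of an mRNA in the cells. Neither library came from cells without the transgene, and the promoter of the transgene is not given in the sources used here.

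Counts summed to 5498124 in the Flag library and to 3412864 in the IgG library. MEX3A itself had 103 counts with Flag and 5 with IgG. Of 9 genes listed for a kidney epithelial line, not each of them particular to epithelium, 7 were detected in both libraries. Among them were PAX8 (2532 Flag and 1049 IgG counts), KRT8 (765 and 602 counts) and VIM (2383 and 1557 counts), while CA9 and CDH6 were at 0. Of 14 markers of other cells 12 were at 0 in both libraries, VWF had 9 counts with Flag and 0 with IgG, and COL1A1 had 875 and 637 counts. The 14 together made up 161 CPM (counts per 1000000 counts of the library) with Flag and 187 CPM with IgG. Their part in any result was not tested.

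Mitochondria carry ribosomes of their own, which make the core subunits of the respiratory chain encoded by mitochondrial DNA. The ribosomal RNAs MT-RNR1 (small subunit) and MT-RNR2 (large subunit) are mitochondrially encoded, whereas every MRP is encoded in the nucleus, translated in the cytosol and imported. Some MRPs have counterparts in bacterial ribosomes, and others were added in the mitochondrial lineage. The names do not always follow the structure: MRPS30 and MRPS18A sit in the large subunit, and MRPS36 is now assigned to the 2-oxoglutarate dehydrogenase complex.

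The promoters of 3 MRP genes are shown because they belong to the highest ratio (MRPL45), to a well-counted small-subunit mRNA of high ratio (MRPS22) and to the 1 depleted mRNA (MRPS18A). Each is the 150 bases before the gene start, read on the gene's strand from RefSeq, build GRCh38.p14, and lies at chr17:38297018-38297167 (plus strand), chr3:139343844-139343993 (plus strand) and chr6:43687792-43687941 (minus strand). Capitals mark CCGGAAG on either strand, the core bound by ETS factors such as GABPA, a known regulator of nuclear genes for mitochondrial proteins.
MRPL45: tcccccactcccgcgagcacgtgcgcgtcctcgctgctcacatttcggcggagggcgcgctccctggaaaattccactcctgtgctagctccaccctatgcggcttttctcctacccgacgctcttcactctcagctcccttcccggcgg
MRPS22: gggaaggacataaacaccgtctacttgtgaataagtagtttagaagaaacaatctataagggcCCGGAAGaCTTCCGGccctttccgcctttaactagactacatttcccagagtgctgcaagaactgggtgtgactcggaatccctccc
MRPS18A: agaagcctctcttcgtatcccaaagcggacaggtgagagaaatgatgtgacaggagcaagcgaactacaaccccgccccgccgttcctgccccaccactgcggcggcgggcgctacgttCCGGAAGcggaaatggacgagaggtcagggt
The MRPS22 stretch holds the core on both strands, 1 base apart, the MRPS18A stretch holds it once, and the MRPL45 stretch does not contain these letters.

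Over windows of 250 bases before to 50 after the start, 67 of the 76 symbols had a sequence. The core stood in 28 of these 67 promoters (41.8%), against 14.1% of 15776 promoters of other protein-coding genes and 10.7% of all 27305 promoters. AAGATGGCG, a core of the factor YY1, stood in 13 (19.4%), against 2.67% of the other protein-coding promoters and 1.85% of all. GCGCATGCG, part of the site of NRF1, a factor of mitochondrial biogenesis genes, stood in 3 (4.48%), against 2.75% of the other protein-coding promoters and 2.10% of all. Both strands were searched, and the ETS and YY1 cores can overlap in a promoter, since one ends and the other begins with AAG. Set against the calls given below, the ETS core stood in 6 of 17 promoters of enriched members and in 17 of 43 of the other members that entered. The YY1 core stood in 2 of the 17 and 8 of the 43, and the NRF1 letters in 2 of the 17 and 0 of the 43. These are matches of letters and not measured sites.

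The MRP mRNAs spread from far below to far above equal levels in the 2 precipitates, around a median below that of all genes. A gene entered with at least 20 counts over both libraries. It was called enriched if the exact 95% counting interval of its Flag to IgG ratio (in CPM) lay above 2, and depleted if it lay below 0.5. Of the 68 members that entered, 19 (27.9%) were enriched, against 28.7% of all 10811 entering genes and 28.8% of the 10193 protein-coding ones. MRPS18A was depleted (1.47% of 68), against 1.32% of all genes. Both shares are near the background, so neither count sets the MRPs apart. The minimum of 20 is on the sum of both libraries. Enriched members such as MRPL53 (21 Flag and 1 IgG counts), MRPS31 (34 and 0) and an MRPS17 row (27 and 0) thus passed through the Flag library, where they are high. The same minimum was used for all genes.

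On the log2 scale the members' median ratio was 0.55, with quartiles of -0.30 and 2.15, against a median of 0.95 over all entering genes. The members ran from -3.19 (MRPS18A) to 5.50 (MRPL45). In 42 of 68 the Flag level was the higher, a smaller share than the 8437 of all 10811 entering genes. With called members counted too, 31 of 68 had an interval wholly above 1, against 6282 of the 10811 genes. An interval wholly below 1 was found for 7 of 68, against 972 of the 10811. Of the 48 that were not called, 12 had an interval wholly above 1, 30 had one that held 1 and 6 had one wholly below 1.

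**Figure D1:**
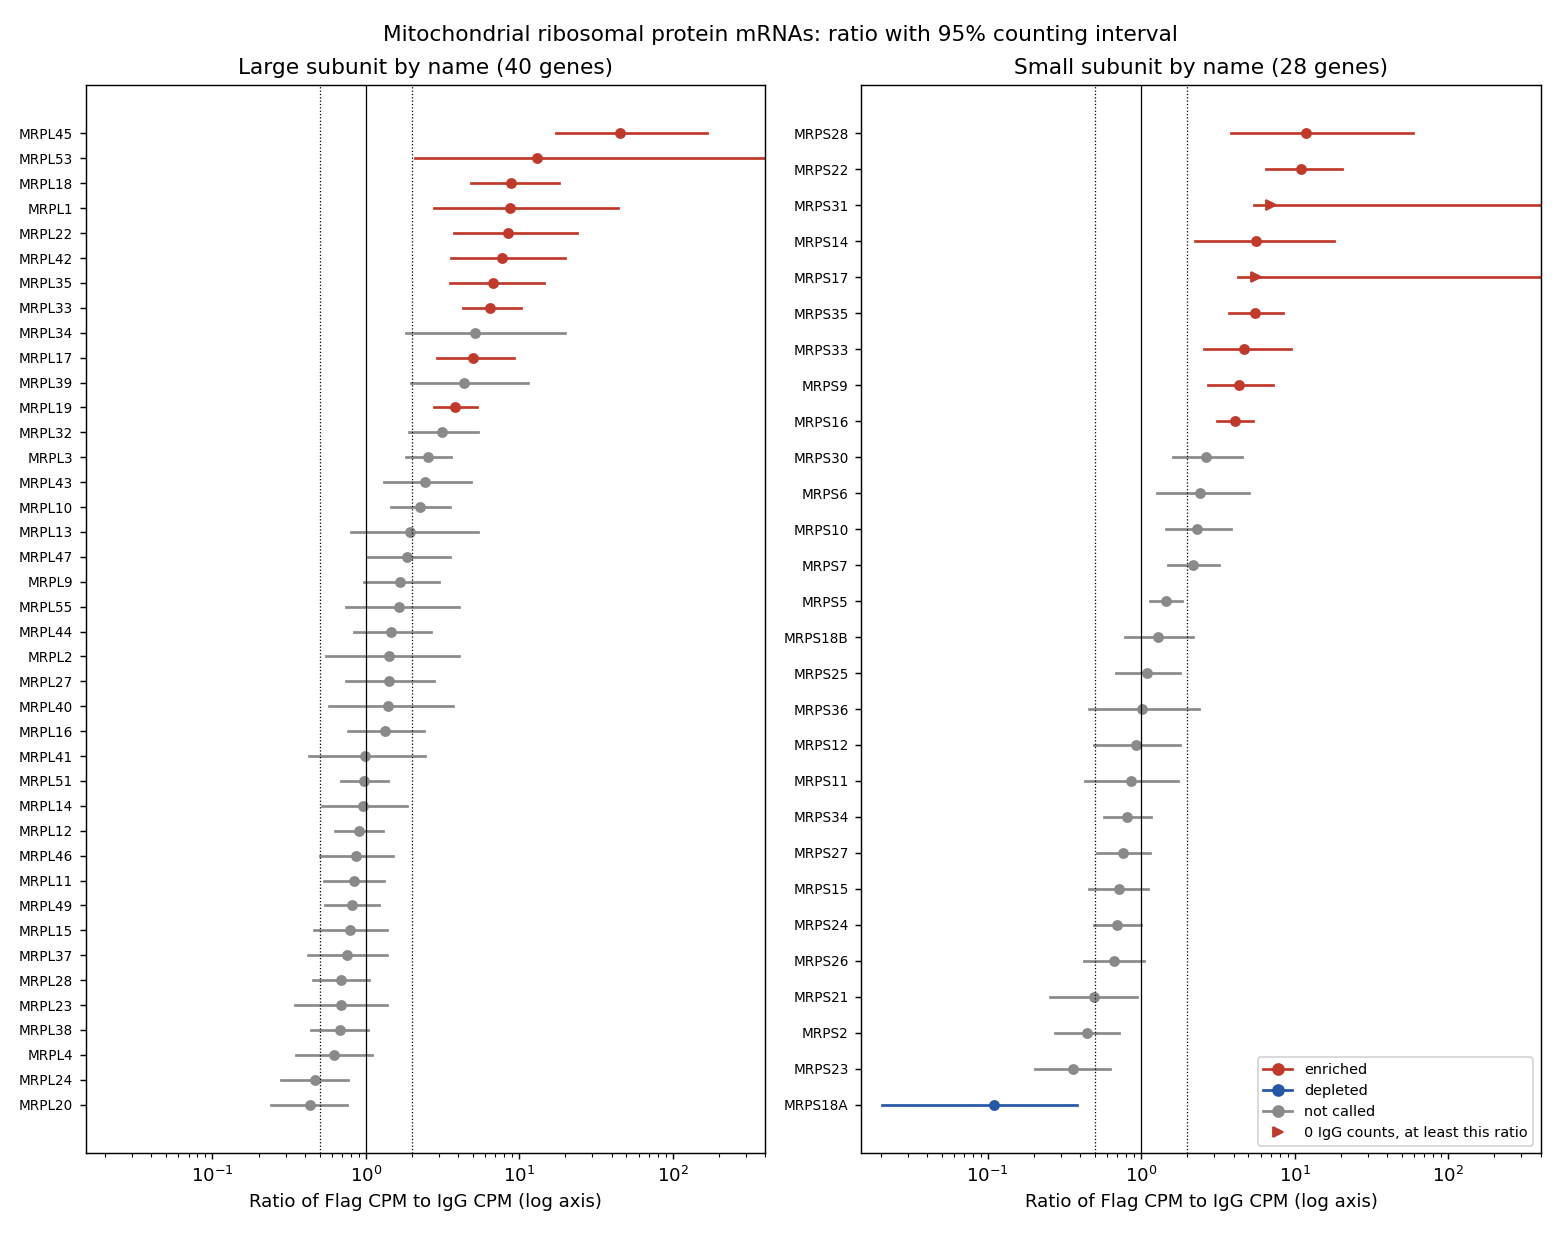
Flag CPM over IgG CPM on a log axis for the 40 large-subunit and 28 small-subunit members that entered, sorted by ratio, with the exact 95% counting interval as a line and the call as colour. Dotted lines mark 0.5 and 2, and triangles mark members with 0 IgG counts after rounding, plotted at a floor of 3 counts. Both subunits have members with ratios below 0.5 and above 2. The highest, MRPL45 of the large subunit, lies at 45.2, and the lowest, MRPS18A of the small subunit by name, at 0.110.

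Among the large-subunit mRNAs MRPL45 stood highest. MRPL45 sits at the exit of the peptide tunnel and helps to hold the mitoribosome at the inner membrane. It had 291 counts with Flag and 4 with IgG (52.9 and 1.17 CPM), a ratio of 45.2 with an interval of 17.4 to 166.9. It was also the second most counted member of the Flag library. The pseudogene copy MRPL45P2 had 11 counts with Flag and 0 with IgG, and the sum of both rows gave a ratio of 46.9 (18.1 to 173.1).

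Of the 6 tunnel-exit proteins, 3 had enriched mRNAs, a count too small to set against the 28.7% of all genes. MRPL22 had 82 counts with Flag and 6 with IgG, a ratio of 8.48 (3.74 to 23.8). MRPL17 had 121 and 15 counts, a ratio of 5.01 (2.92 to 9.22). The other 3 were not called: MRPL47 had a ratio of 1.86, MRPL23 of 0.690 and MRPL24 of 0.466 (30 and 40 counts, 0.280 to 0.766). Proteins at one place of the ribosome thus had mRNAs both above and below equal levels.

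The central protuberance, which in bacteria is built round 5S rRNA, had 1 enriched mRNA among the 5 that entered. MRPL18, the counterpart of a bacterial 5S rRNA-binding protein, had 157 counts with Flag and 11 with IgG, a ratio of 8.86 (4.82 to 18.1). MRPL27 (1.41), MRPL40 (18 and 8 counts, 1.4), MRPL46 (0.869) and MRPL38 (0.676) were not called, and MRPL48, with 13 and 1 counts, did not enter. Of the 4 proteins of the stalk and its base, which recruit translation factors, MRPL53 was enriched, with 21 Flag and 1 IgG counts (13.0, 2.10 to 539.1). Its counts were fractional and its lower bound was the nearest to the threshold from inside. MRPL10 (101 and 28 counts, 2.24), MRPL11 (50 and 37 counts, 0.839) and MRPL12 (81 and 56 counts, 0.898), which also binds the mitochondrial RNA polymerase, were not called.

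The other enriched large-subunit mRNAs encode counterparts of bacterial proteins, apart from MRPL42, which has none. MRPL33 had 261 counts with Flag and 25 with IgG, a ratio of 6.48 (4.29 to 10.2), and MRPL19 had 276 and 45 counts, a ratio of 3.81 (2.77 to 5.34). MRPL35 had 109 and 10 counts (6.77), MRPL42 87 and 7 (7.71) and MRPL1, the protein of the mobile L1 stalk, 42 and 3 (8.69, 2.78 to 43.8). Just outside the threshold lay MRPL39, with 49 and 7 counts (4.35, 1.96 to 11.4), and MRPL32, with 101 and 20 counts (3.13, 1.93 to 5.35). MRPL3, near the peptidyl transferase centre, had 180 and 44 counts and a ratio of 2.54 (1.82 to 3.62). MRPL20, with 23 and 33 counts and fractional values, had the lowest ratio among the large-subunit members by name that entered, 0.433 (0.243 to 0.759).

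In the small subunit 9 of 28 mRNAs (32.1%) were enriched, against 28.7% of all entering genes. MRPS22, a protein without a bacterial counterpart, had 249 counts with Flag and 14 with IgG, a ratio of 11.0 (6.46 to 20.5). MRPS35, also specific to mitochondria, had 257 and 29 counts, a ratio of 5.50 (3.74 to 8.38), and MRPS33 had 91 and 12 (4.71, 2.57 to 9.44). Among members listed as counterparts of bacterial proteins, MRPS28 had 57 and 3 counts, a ratio of 11.8 (3.84 to 58.9). MRPS9 had 147 and 21 counts (4.35, 2.74 to 7.23) and MRPS14 had 45 and 5 (5.59, 2.22 to 18.0).

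MRPS31 and 1 of the 2 MRPS17 rows had 0 IgG counts after rounding. MRPS31 had 34 counts with Flag and 0 with IgG, a ratio of at least 7.03 against a floor of 3 IgG counts. That figure takes the Flag counts as exact, and the counting interval used for the call, which does not, reached down to 5.42. Its pseudogene MRPS31P5 had 5 counts in each library, and the sum of both rows was not called (4.84, 1.91 to 15.7). MRPS17 (ENSG00000239789) had expected counts of 26.88 with Flag and 0.46 with IgG, rounded to 27 and 0, at least 5.59-fold against the floor, with an interval down to 4.24. Its reads were divided with the other MRPS17 row, and the 2 rows together had 30 and 2 counts, a ratio of 9.31 (2.36 to 80.4).

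MRPS16 was the most counted member of the Flag library, with 427 Flag and 65 IgG counts and a ratio of 4.08 (3.14 to 5.38). Its counts were fractional. The antisense gene DNAJC9-AS1, which overlaps it in RefSeq, had 207 counts with Flag and 0 with IgG, and reads of both strands cannot be told apart without a stated strand setting. The sum of the 2 genes gave 6.05 (4.69 to 7.94).

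MRPS18A, MRPS18B and MRPS18C are paralogs of 1 bacterial protein, S18, and take different places in the mitoribosome. MRPS18A, of the large subunit by structure, had 3 counts with Flag and 17 with IgG, a ratio of 0.110 (0.0206 to 0.379). MRPS18B had 52 and 25 counts, a ratio of 1.29 (0.787 to 2.17). MRPS18C, with 7 counts in each library, did not enter. The intervals of MRPS18A and MRPS18B do not overlap. The call of MRPS18A rests on 20 counts: the 3 Flag counts of RSPH9, which overlaps it in RefSeq, end it when added (0.219, 0.0707 to 0.582), and so does a 99% interval.

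The lower and middle range of the small subunit held well-counted members. MRPS23 had 22 Flag and 38 IgG counts (0.359, 0.202 to 0.623) and MRPS2 33 and 46 (0.445, 0.276 to 0.712), the 2 members just outside the threshold for depletion. MRPS24 had 73 and 65 counts (0.697, 0.492 to 0.989), and MRPS21 19 and 24 (0.491). MRPS5, the most counted member of the IgG library, had 229 Flag and 98 IgG counts (1.45, 1.14 to 1.86). MRPS12, of the decoding centre, had 27 and 18 counts (0.931, 0.494 to 1.79). MRPS30 had 85 and 20 counts (2.64) and MRPS36 18 and 11 (1.02).

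Of the 78 rows, 10 did not enter. Both MRPL30 rows were at 0 in both libraries, a limit of 0.546 CPM with Flag and 0.879 CPM with IgG (3 counts). The others were MRPL21, MRPL36, MRPL48, MRPL50, MRPL52, MRPL54, MRPS18C and the MRPS17 row ENSG00000249773. Over both libraries MRPL52 had 19 counts, MRPL54 15, and MRPL21, MRPL48 and MRPS18C 14 each. MRPL36, MRPL50 and that MRPS17 row had 5 each.

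**Figure D2:**
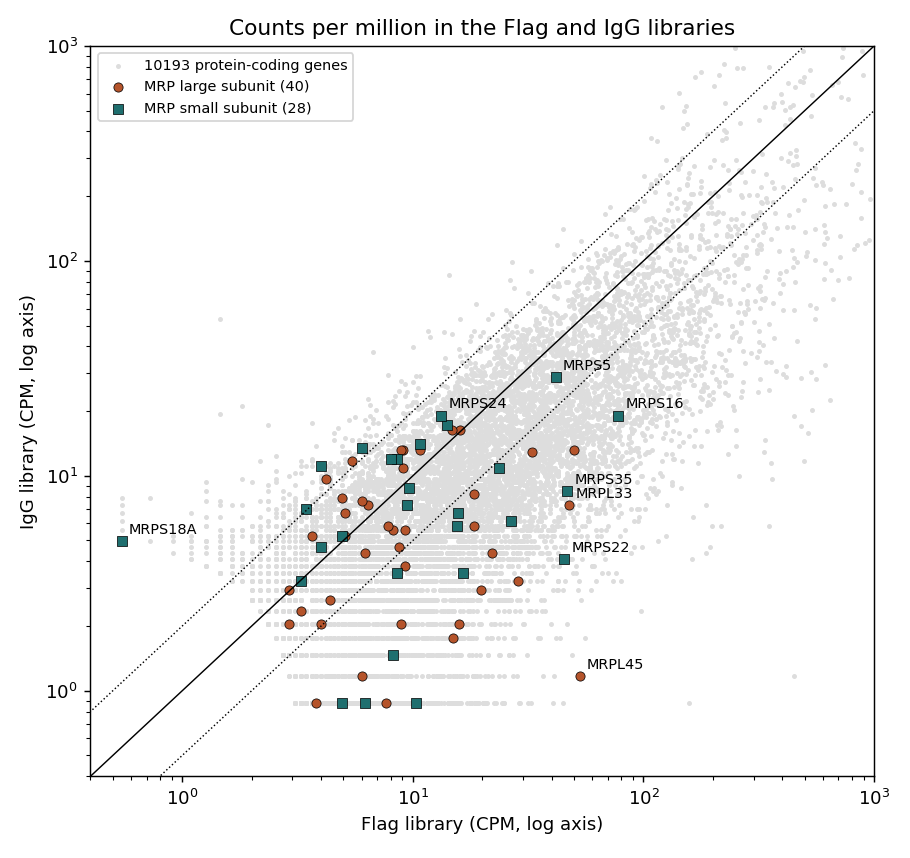
Flag CPM (x axis) and IgG CPM (y axis), both on log axes, for the entering members (circles, large subunit; squares, small subunit) over 10193 protein-coding genes in grey, of which those above 1000 CPM lie outside the frame. The solid line marks equal levels and the dotted lines 2-fold. Rounded counts below 3 are drawn at the floor of 3 counts, as for MRPL53 with 1 IgG count. MRPS24 lies above the line of equal levels and MRPL45 far below it, at 52.9 Flag CPM and 1.17 IgG CPM.

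The large and small subunits were close. Of large-subunit members by name 10 of 40 (25%) were enriched and 0 depleted, and of small-subunit members 9 of 28 (32.1%) were enriched and 1 depleted. The shares of all entering genes were 28.7% and 1.32%. The median log2 ratio was 0.64 for the large and 0.45 for the small subunit, a difference of 0.19, while the quartiles within each subunit ran from -0.22 to 2.17 and from -0.42 to 2.15. With MRPS30 and MRPS18A moved to the large subunit and MRPS36 left out, the difference was 0.10. With the authors' TPM (a level per transcript length) it changed sign, to -0.14. The summed counts were 2925 Flag and 894 IgG for the large subunit (pooled ratio 2.03, 1.88 to 2.19) and 2470 and 827 for the small subunit (1.85, 1.71 to 2.01), so the intervals overlap.

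The ribosomal RNAs with which these proteins assemble had other ratios. MT-RNR2 of the large subunit was 3.20-fold and MT-RNR1 of the small subunit 6.72-fold higher in the Flag library. Together they made up 301094 CPM with Flag and 77865 CPM with IgG, and so weigh on the totals that every ratio is divided by. Leaving mitochondrial and the 10 largest genes out of the totals moved the MRP median log2 ratio from 0.55 to 0.31.

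Proteins with and without bacterial counterparts were also close. Of 44 members with a counterpart 12 (27.3%) were enriched and 1 (2.27%) depleted (median 0.73). Of 23 without one 7 (30.4%) were enriched and 0 depleted (median 0.48). Of all entering genes 28.7% were enriched and 1.32% depleted, so these shares are near the background. In the large subunit the medians were 0.74 with and 0.48 without a counterpart, and in the small subunit 0.54 with and 0.77 without, so the order of the medians differed between subunits.

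All members together made up 0.0981% of the Flag library (5395 counts, 981 CPM) and 0.0504% of the IgG library (1721 counts, 504 CPM), a pooled ratio of 1.95 (1.84 to 2.06). The pooled ratio of all protein-coding genes was 0.757. The Flag counts were concentrated on fewer members. Of all Flag counts of the group, 12 members held 50%, and in the IgG library it took 17. The 5 most counted members held 28.0% of Flag and 19.9% of IgG counts. They were MRPS16, MRPL45, MRPL19, MRPL33 and MRPS35 in the Flag library and MRPS5, MRPS24, MRPS16, MRPS34 and MRPL51 in the IgG library, so 1 was shared.

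On the per-length scale of TPM, entering members ran from 0.62 to 156.78 with a median of 9.66 in the Flag library and from 0 to 36.47 with a median of 6.4 in the IgG library. MRPL33, whose mRNA is short, was the highest in the Flag library, at 156.78 TPM, against 23.72 TPM in the IgG library. MRPS35 (66.41 and 6.91 TPM) and MRPS22 (54.60 and 5.05 TPM) followed. In the IgG library MRPS24 came first, with 25.19 Flag and 36.47 IgG TPM.

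Count and TPM ratios ranked the 68 members much alike, at a Pearson r of 0.904 and a Spearman rho of 0.941 on the log2 scale. The points share the same reads, so this describes how length enters and no more. The tables give each gene a transcript length per library, a mean over its isoforms. For 31 of the 34 members with at least 20 counts in each library, the Flag length was within 1.5 times the IgG length. MRPS27, a pentatricopeptide repeat protein, differed most: its length was 917 bases in the Flag and 2628 in the IgG library, so that 59 and 48 counts (ratio 0.763) became 14.52 and 5.71 TPM (2.52 with a pseudocount of 0.1). MRPS35 had 883 and 1406 bases, and MRPS16 2227 and 1283 bases, with a TPM ratio of 2.19 against 4.08 by counts. Enriched members with fewer than 20 IgG counts fall outside these 34. Of them, MRPL53, MRPL35, MRPL42, MRPL22 and MRPL17 had a Flag length above 1.5 times the IgG length. By TPM with a pseudocount of 0.1 their ratios were 2.68, 3.06, 3.26, 3.43 and 2.61, against 13.0, 6.77, 7.71, 8.48 and 5.01 by counts. MRPL45, MRPS28, MRPS22, MRPL18, MRPL1, MRPS14 and MRPS33 had lengths within 1.5 times, and MRPS31 and MRPS17 had 0 IgG counts after rounding. Whether these lengths reflect isoforms or the assignment of few reads was not tested.

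**Figure D3:**
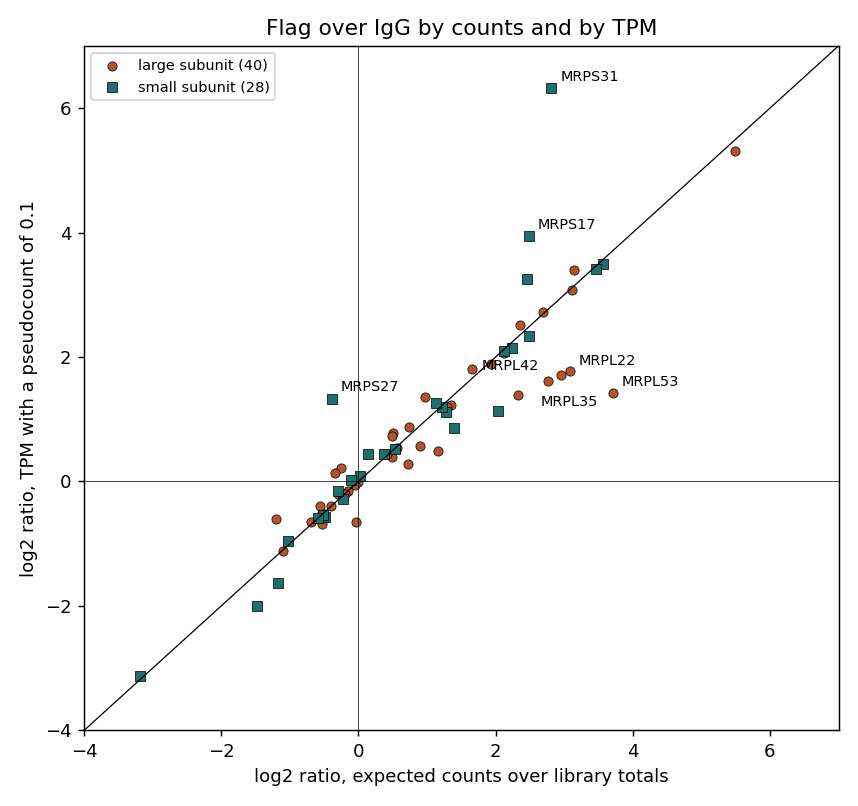
log2 ratio of Flag to IgG from expected counts over library totals (x axis) and from TPM with a pseudocount of 0.1 (y axis) for the 68 entering members, circles for the large and squares for the small subunit. The line marks equal values, and members more than 1 log2 unit from it are named. MRPS27 lies above the line and MRPL53, MRPL22, MRPL42 and MRPL35 below it. MRPS31 and MRPS17, with 0 IgG counts after rounding, rest on a floor on the x axis, and MRPS31, at 0 IgG TPM, rests on the pseudocount on the y axis.

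Across the members the log2 ratio had little relation to transcript length, at a Pearson r of 0.10 and a Spearman rho of 0.06 (n = 68). Over the 10193 protein-coding genes r was 0.16 and rho 0.19. Sorted by mean length, the 23 shortest members had 8 enriched and a median of 0.73, the 23 of middle length 3 enriched and -0.04, and the 22 longest 8 enriched and 1.17. Protein-coding genes in the same length ranges had medians of 0.45, 0.65 and 0.84, and 19.2%, 20.2% and 25.7% of them were enriched.

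Other genes of mitochondrial translation gave a mixed picture as well. Of all 10811 entering genes 28.7% were enriched and 1.32% depleted, the shares to set beside each list. Of 7 mitoribosomal proteins that carry other names, 3 were enriched and 0 depleted (median 0.31), a list too small to set against these shares. DAP3, a GTP-binding protein of the small subunit, had 503 counts with Flag and 62 with IgG, a ratio of 5.04 (3.86 to 6.67). CHCHD1 had 44 and 2 counts (13.7, 3.56 to 116.3), and MRP63 had 71 and 5 (8.81, 3.61 to 28.0). ICT1, a peptidyl-tRNA hydrolase built into the large subunit, had 30 and 15 counts (1.24), PTCD3 82 and 49 (1.04), GADD45GIP1 102 and 63 (1.01) and AURKAIP1 83 and 84 (0.613, 0.447 to 0.841).

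Of 25 entering genes for mitoribosome assembly and rRNA modification, 2 (8.0%) were enriched and 0 depleted (median 0.68). The enriched share lay below the 28.7% of all genes, of which 1.32% were depleted. DHX30, an RNA helicase, had 1284 counts with Flag and 100 with IgG, a ratio of 7.97 (6.50 to 9.87), and GTPBP10, a GTPase of large-subunit assembly, had 222 and 29 (4.75, 3.22 to 7.26). ERAL1, a GTPase that binds the small-subunit rRNA, had 28 and 51 counts (0.341, 0.207 to 0.551), and the helicase gene DDX28 7 and 17 (0.256, 0.0896 to 0.649).

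Of 12 entering translation factor genes, a small list, 1 (8.33%) was enriched and 0 depleted, against 28.7% and 1.32% of all genes. Their median of 1.21 was above the 0.95 of all genes. An interval wholly above 1 was found for 9 of the 12 and an interval wholly below 1 for 1. The enriched one was the release factor gene MTRF1L, with 88 Flag and 5 IgG counts (10.9, 4.51 to 34.5). The membrane insertase gene OXA1L had 28 and 36 counts (0.483, 0.284 to 0.814), and TUFM, the elongation factor that brings tRNA to the mitoribosome, 295 and 197 (0.930, 0.774 to 1.12).

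Of 19 entering rows for mitochondrial transcription and mRNA handling, with KIAA0391 on 2 of them, 5 (26.3%) were enriched and 0 depleted (median 0.55). The shares of all genes were 28.7% and 1.32%. The mitochondrial DNA-packaging factor TFAM had 475 counts with Flag and 40 with IgG, a ratio of 7.37 (5.33 to 10.5). Of the 2 KIAA0391 rows, 1 had 27 rounded counts against 0, with fractional values (at least 5.59-fold against the floor, with an interval down to 4.24). The other KIAA0391 row was not called, with 20 and 15 rounded counts, fractional with Flag (0.828, 0.403 to 1.74). The 2 rows were not summed, so the call holds for 1 row and not for the gene. FASTK had 96 and 91 counts (0.655, 0.486 to 0.882) and POLRMT, the mitochondrial RNA polymerase gene, 171 and 133 (0.798, 0.633 to 1.01).

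Set beside the mRNAs of other multi-subunit machines, the MRP median of 0.55 lay above that of 84 cytosolic ribosomal protein genes (-0.16, 8 enriched and 1 depleted) and that of 73 nuclear genes of oxidative phosphorylation (-0.03, 13 enriched and 2 depleted). The share of enriched genes was 27.9% for MRPs, 9.52% for cytosolic ribosomal proteins and 17.8% for oxidative phosphorylation. Against 28.7% of all genes the MRPs lay near and the other lists below. That background is not matched for length: median Flag lengths were 1082, 651 and 740 bases for the lists and 2085 for all genes. Of protein-coding genes of 491 to 956 bases 19.2% were enriched, and of those of 967 to 1226 bases 20.2%. The MRP share over members of all lengths is above both, and that of oxidative phosphorylation lies near. Within these ranges the order differed. Of the 23 shortest members 8 were enriched, a share above 19.2%, and of the 23 of middle length 3 were, a share below 20.2%. Of the 22 longest members 8 were enriched, against 25.7% of protein-coding genes in their length range. These are descriptions of 2 libraries, without a test of the difference.

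**Figure D4:**
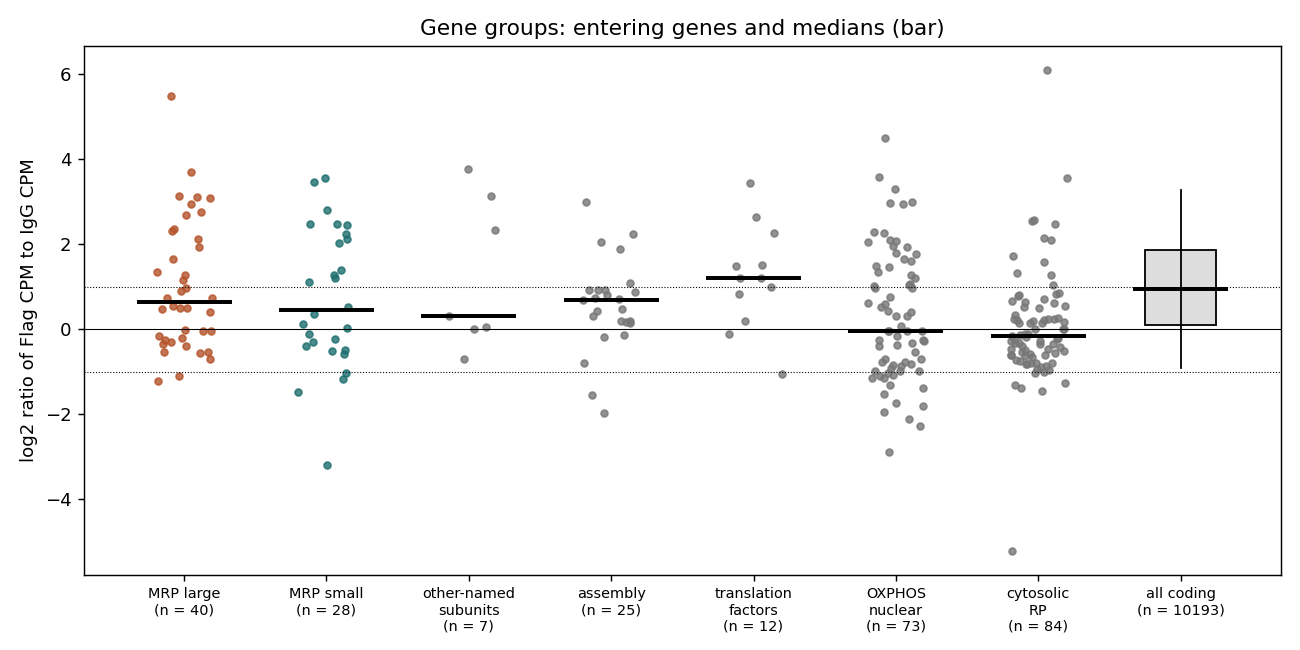
log2 of Flag CPM over IgG CPM for entering genes of each group (points) with the group median (thick bar). For all 10193 protein-coding genes the box spans the quartiles and the line the 5th to the 95th percentile. The medians are 0.64 for the large and 0.45 for the small subunit, and 0.94 for all protein-coding genes.

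The position of the MRP median against that of all genes differed between settings. By counts, with at least 20, the members' median less that of all genes was -0.40 log2 units, which no scaling of the totals can alter. It was -0.24 by TPM with a pseudocount of 0.1 and -0.14 with a pseudocount of 1. With at least 100 counts, 24 members entered, with a median of 1.52 against 1.04 for all genes. That minimum is on the sum of both libraries, so MRPL45 (291 Flag and 4 IgG counts), MRPL18 (157 and 11) and MRPS22 (249 and 14) passed through the Flag library, where they are high, and the median of those that passed is a description and no support. TMM scaling, which assumes that most genes do not differ, lowered every log2 ratio by 0.78. It called 11 members (16.2%) enriched, against 12% of all genes, and 5 depleted (MRPL20, MRPL24, MRPS2, MRPS18A and MRPS23), 7.35% against 6.12% of all genes, and placed the members' median at -0.23. Of the 19 enriched members 11 kept their call, and MRPL1, MRPL17, MRPL19, MRPL53, MRPS9, MRPS14, MRPS16 and MRPS33 lost it. Median-of-ratios scaling also called 11 enriched (11.7% of all genes) and 5 depleted (6.24%). At a minimum of 100 counts 11 of 24 were enriched, or 45.8% against 37.9% of all genes, and 0 depleted (1.62%). By TPM, called from the ratio alone, 29 were enriched (44.2% of all genes) and 4 depleted (6.59%) at a pseudocount of 0.1, and 28 (37.7%) and 4 (4.96%) at a pseudocount of 1. A 99% interval gave 17 (23.5%) and 0 (1.06%), a 1.5-fold threshold 25 (40%) and 2 (2.76%), and a 4-fold threshold 6 (8.55%) and 0 (0.222%).

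**Figure D5:**
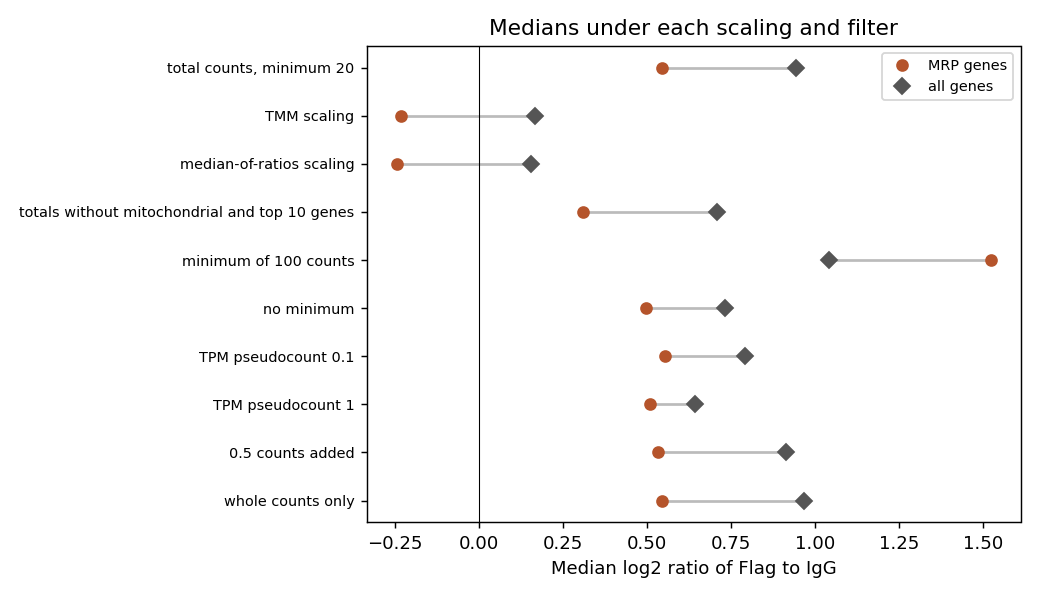
Median log2 ratio of Flag to IgG over the entering MRP genes (circles) and over all entering genes (diamonds) under each scaling and filter. The circle lies left of the diamond in every setting shown except the minimum of 100 counts, where it lies at 1.52 against 1.04.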

How the data were processed

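RNA immunoprecipitation and sequencing was analysed for the Flag and IgG libraries of ACHN cells. Expected counts, estimated read counts per gene, were deposited without normalization, and per the file headers the layout is that of RSEM gene output. The authors scaled TPM to effective length and a fixed sum, as the headers show. The deposited FPKM column was not used. Lengths were taken from other columns of the deposited tables. Per the submitters' processing notes, the tools were STAR and RSEM and the builds hg19 and GRCh37, with no roles or versions. Strand setting, filters and annotation release were not given in the sources used here. The labels give the IgG sample the same protocol text, which names the anti-Flag antibody alone.

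Expected counts were rounded to whole numbers and divided by their totals (CPM). For 70 of the 78 members they were whole within 0.01. Reads shared with copies or overlapping genes are divided by such counting. Intervals are exact Clopper-Pearson intervals, on the share of a gene's counts found with Flag (scipy 1.17.1), and they and the floor of 3 counts cover counting error only, since reads copied by PCR and not tagged per molecule are not independent. The interval code was tested on simulated counts. Entering members had a median of 49 Flag and 20 IgG counts. TMM used edgeR 4.0.16 and median-of-ratios scaling DESeq2 1.42.0, for scaling factors alone. Gene overlaps and promoters came from RefSeq of GRCh38.p14, and gene coordinates of the files' build were not used.

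Members and lists were chosen with earlier results of these data known. Named were all called members, the 5 with the most CPM, those beside each threshold, the MRPS18 paralogs, MRPS30, MRPS36, members with counts in 1 library or none, those that did not enter, and the ends of other lists. Others named were chosen after their values were seen.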

Additional observations from a re-analysis of the deposited data

How the results depend on the processing

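With 1 library per antibody, counting error sets the precision, and the spread between precipitations is unknown. No paired analysis was possible because each group has 1 library. The main values were 19 enriched and 1 depleted members, and median log2 ratios of 0.55 for all, 0.64 for the large and 0.45 for the small subunit. TMM scaling gave 11 enriched, 5 depleted and medians of -0.23, -0.14 and -0.33, and median-of-ratios scaling 11, 5, -0.24, -0.15 and -0.34. A scaling shifts every gene alike. Leaving mitochondrial and the 10 largest genes out of the totals gave medians of 0.31, 0.41 and 0.22. At least 100 counts left 24 members, 11 enriched and 0 depleted, with medians of 1.52, 1.79 and 1.31, so that the subunits differed by 0.48, but members high with Flag alone could pass this minimum. Without a minimum the subunit medians were 0.53 and 0.25. TPM with a pseudocount of 0.1 gave 29 enriched and 4 depleted members (44.2% and 6.59% of all genes), a small-subunit median of 0.69 and a subunit difference of -0.14. A pseudocount of 1 gave 4 depleted, subunit medians of 0.49 and 0.60 and a difference of -0.12. Genes with whole counts gave a subunit difference of 0.36. A 99% interval gave 0 depleted, a 1.5-fold threshold 2 depleted, and a 4-fold threshold 6 enriched and 0 depleted. Under both the TMM and the median-of-ratios factors MRPL1, MRPL17, MRPL19, MRPL53, MRPS9, MRPS14, MRPS16 and MRPS33 lost their calls, and 11 of the 19 kept theirs. MRPL53 and MRPS14 also lost theirs with a 99% interval and with the reduced totals. Under TPM, called without an interval, all 19 were kept. The sums with DNAJC9-AS1 and RSPH9 were chosen after seeing the data. MRPS27 changed direction, from a ratio of 0.763 by counts (not called) to 2.52 by TPM with a pseudocount of 0.1, where it passed 2. Beyond the stated effect of each filter or scaling, the cause of these shifts was not tested.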
